A study of Homo sapiens with 6 samples.

Results

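The genes described here are 47 components of the phosphoinositide 3-kinase (PI3K), Akt and mTOR pathway, listed by symbol for their place in the pathway and not by their values. Of the 15284 genes with a row in both deposited tables of read counts, 45 were members. PIK3R2 and INPP5D were not analysed here. The 45 comprise 4 receptors and adaptors, 6 catalytic and 3 regulatory subunits of lipid kinases, 2 lipid phosphatases, 5 genes for Akt, its activating kinase and its phosphatases, and 6 Akt substrates. They also include 4 genes of the switch upstream of mTOR, 3 of the core shared by both mTOR complexes, 2 of mTORC1, 3 of mTORC2 and 7 outputs of mTORC1. All 45 passed the filter on low counts and were among the 12678 genes tested.

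Gene expression was read by sequencing poly(A) RNA from HCT116, an established human colorectal carcinoma cell line. The knockout groups KO2 and KO1 received lentiCRISPR v2 virus with one of a pair of guides against MUC3A, a gene for a membrane mucin of the intestinal epithelium, and the WT group served both for comparison. Infection was at a multiplicity of infection of 10, followed by puromycin at 2 µg/mL for 72 h. Each group has 2 libraries, of 13638724 to 17830282 counts. WT libraries carry the genotype label wild type and the treatment label negative control, while a scrambled virus appears in the protocol, so it is not settled whether WT cells were infected. The labels speak of selected lines and do not say whether these are pools or clones. No label ties the 2 libraries of a group to separate cultures, so the spread between libraries may be technical. Unless stated otherwise, the p-values reflect only the part of that spread left once the prefix of the column name, described below, is fitted. That part is how far the differences between groups disagree between the 2 prefixes, together with spread borrowed from other genes.

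In each group the columns of the tables name 1 library with the prefix HCT116 and 1 with the prefix HCT. The sources used here do not give what the prefix marks, and every sample is labelled HCT116. The prefix separated the libraries more than the guides did: 63.9% of all tested genes differed between the HCT116-named and the HCT-named libraries. Libraries were therefore compared within a prefix, and a library is named here by prefix and group, such as HCT116-KO2 and HCT-KO2. Whether reads were counted by strand is also not given, and 16 of the 45 member genes overlap another coding gene in GENCODE 29, so their counts are less certain. PIK3R1, IGF1R and FOXO1 are not among these. Counting gene models of any type, 37 of the 45 overlap another, IGF1R and FOXO1 among them but not PIK3R1. Levels are given as CPM, which are read counts scaled to the TMM-adjusted size of the library.

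Class I PI3Ks, recruited by insulin, IGF and other receptors through adaptor proteins, phosphorylate a membrane phosphoinositide, and the product brings Akt to the membrane, where PDPK1 and mTORC2 activate it. Akt phosphorylates FOXO transcription factors, GSK3 kinases and the TSC complex, and loss of TSC activity lets RHEB switch on mTORC1, which drives protein synthesis and holds back autophagy. Most of this regulation is by phosphorylation and lipid turnover, neither of which was measured here. In colorectal epithelium the pathway is known for its part in growth and survival signalling.

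The 2 guides define the comparison and are shown with the adjacent PAM in capitals. Both matched exon 2 of MUC3A on chromosome 7 of GRCh38, the KO2 guide on the strand of the transcript at chr7:100951917-100951936 and the KO1 guide on the opposite strand at chr7:100952090-100952109.
KO2: ttctccacactccagagaccTGG
KO1: gaaggcaaacttggacgtcgGGG

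MUC3A itself had 24.6 CPM in HCT116-KO2 and 30.04 in HCT-KO2, 28.6 in HCT116-KO1 and 52.9 in HCT-KO1, against 25.1 in HCT116-WT and 52.7 in HCT-WT. The KO1 libraries lay close to the WT library of the same prefix, and the KO2 libraries of both prefixes were below or near them. Neither difference from WT was called with edgeR's quasi-likelihood test. MUC3A in KO2 against WT had a log2 fold change of -0.43 (SE 0.19, 95% interval -0.84 to -0.02, adjusted p = 0.237), and MUC3A in KO1 against WT had a log2 fold change of 0.08 (SE 0.18, 95% interval -0.32 to 0.49, adjusted p = 0.962). A frameshift need not lower a transcript, so these counts do not check the knockout.

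Few members differed between knockout and WT cells. In KO2 against WT 0 members were called higher, against 2.15% of all tested genes, and 1 lower, PIK3R1, against 2.47%, at an adjusted p of 0.05 (4.61% in both directions). In KO1 against WT 0 members were called higher, against 0.678% of all tested genes, and 0 lower, against 0.347% (1.03% in both directions). At an unadjusted p under 0.05 there were 8 members in KO2 against WT and 2 in KO1 against WT. DESeq2 called 3 members in KO2 against WT (4.84% of all tested genes) and 1 in KO1 against WT (1.62%), and limma-voom 4 in KO2 against WT (5.59%) and 0 in KO1 against WT (1.17%). In KO2 against KO1 3 members were called lower (PIK3R1, IGF1R and FOXO1), against 5.39% of all tested genes, and 0 higher, against 4.24% (9.62% in both directions), and 11 had an unadjusted p under 0.05. DESeq2 called 4 members there (8.89% of all tested genes) and limma-voom 5 (11.2%). The members called by edgeR are 2.22% of 45 for KO2 against WT, below the 4.61% of all tested genes, but this order turns with the tool: the share of members was 6.67% with DESeq2 and 8.89% with limma-voom, above the shares of all genes just given, and with RLE scaling it was 6.67% beside 5.01%. In KO2 against KO1 it was 6.67% of 45 by edgeR, 8.89% with DESeq2 and 11.1% with limma-voom, below or near the shares of all genes. The 2 comparisons with WT share its libraries. In bulk RNA, fewer cells holding a transcript and less of it per cell cannot be told apart.

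The members' median log2 fold change was -0.06 in KO2 against WT, -0.02 in KO1 against WT and -0.04 in KO2 against KO1, beside 0.00 for all tested genes in each. Their median absolute log2 fold change was 0.14 in KO2 against WT, 0.13 in KO1 against WT and 0.22 in KO2 against KO1, beside 0.20, 0.14 and 0.23 for all tested genes. Within 0.3 of 0 on the log2 scale lay 34 of 45 members for KO2 against WT, 40 for KO1 against WT and 29 for KO2 against KO1. The median standard error of a member was 0.15 in each of these comparisons. Both prefixes gave a member the same direction for 21 of 45 when KO2 was set against WT, 30 for KO1 against WT and 31 for KO2 against KO1, beside 59.5%, 61.1% and 65.6% of all tested genes. Groups whose 2 libraries did not overlap across prefixes were rarer. They numbered 1 member in KO2 against WT (ULK1), 1 in KO1 against WT (PIK3R3) and 4 in KO2 against KO1 (PIK3R3, IRS1, FOXO4 and ULK1), beside 20.4%, 12.6% and 24.8% of all tested genes. These genes were picked out after their values were seen, and none was called.

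**Figure D1:**
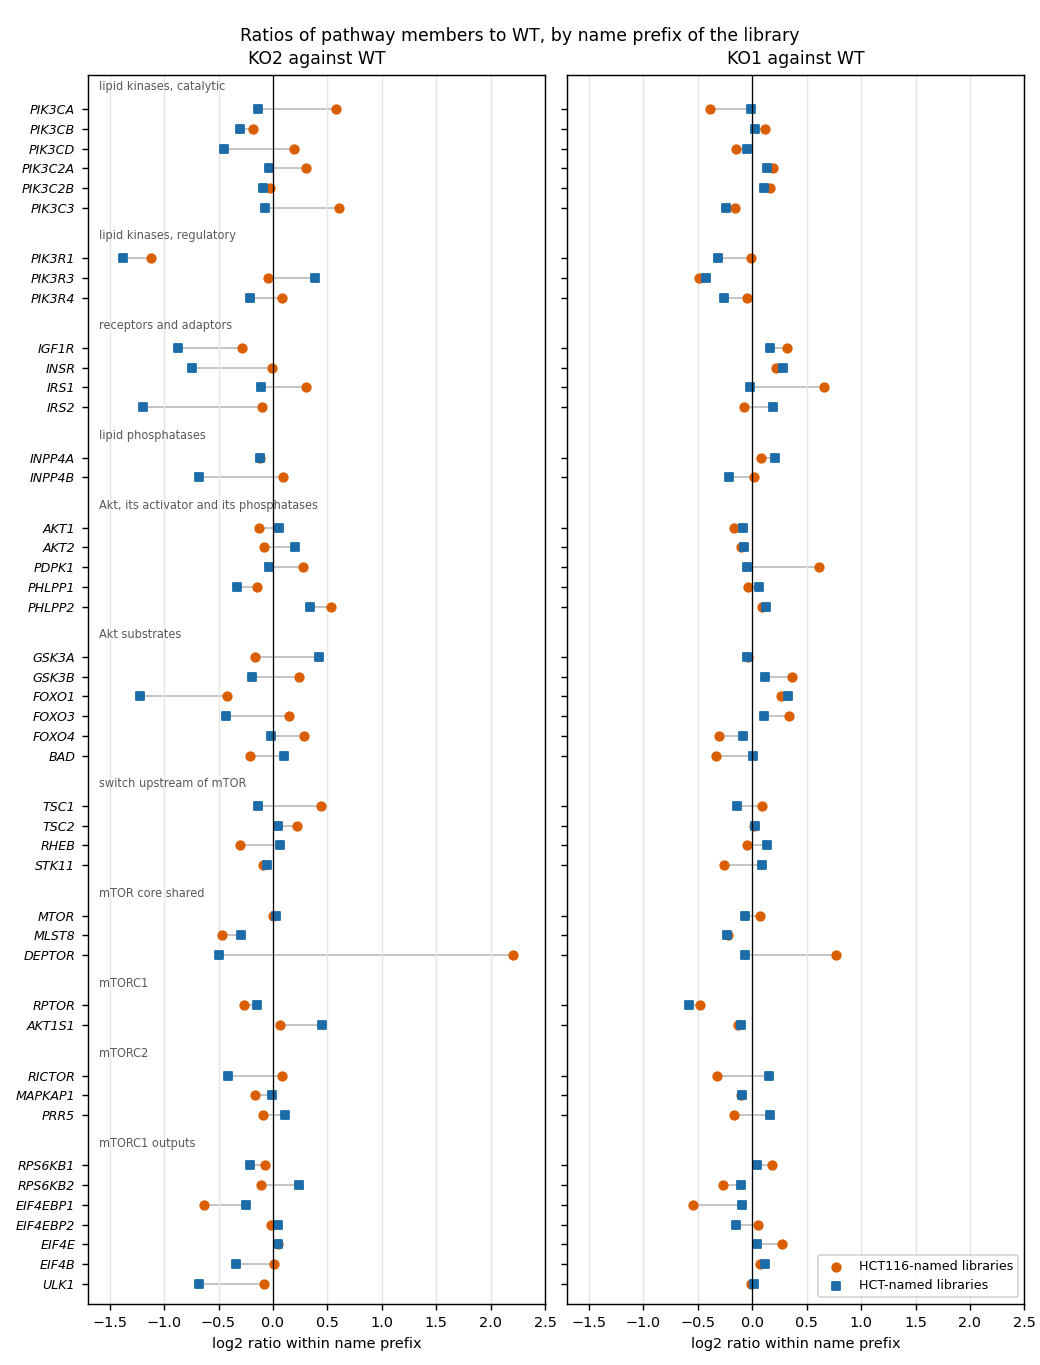
Log2 ratio of each of the 45 members to WT (horizontal axis) in KO2 (left) and KO1 (right), computed within each prefix: orange circles for HCT116-named and blue squares for HCT-named libraries, joined by a grey line, with members grouped by role. Most members lie near 0 in both panels. PIK3R1 lies below 0 in KO2 under both prefixes (-1.12 and -1.37), and IGF1R, INSR, IRS2 and FOXO1 lie lower in the HCT-named KO2 library than in the HCT116-named one.

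How far these counts reach depends on single libraries. In KO2 against WT, where 1 member was called with all 6 libraries, 11 were called when HCT116-KO2 was left out, 2 higher and 9 lower, which is 24.4% beside 16.7% of all tested genes. Without HCT-KO2 the count was 7, 4 higher and 3 lower, or 15.6% beside 12.8%. It was 4 without HCT116-KO1 (5.44% of all tested genes), 2 without HCT116-WT (2.44%) and 2 without HCT-WT (2.98%), all lower. In KO2 against KO1, where 3 were called with all 6, the count was 15 without HCT116-KO2, 4 higher and 11 lower, or 33.3% beside 24.7% of all tested genes. Without HCT-KO2 it was 6, 3 higher and 3 lower, or 13.3% beside 14.8%. It was 5 without HCT116-KO1 (5.62% of all tested genes), 5 without HCT116-WT (10.8%), 5 without HCT-WT (10.9%) and 1 without HCT-KO1 (3.02%), all lower. In KO1 against WT, where 0 were called with all 6, RPTOR and EIF4EBP1 were called lower without HCT116-KO2 (2 members, beside 6.52% of all tested genes) and without HCT-KO2 (2, beside 6.96%). A group left with 1 library is assumed to vary like the others. Without the prefix as a term no member was called in any of the 3 comparisons by edgeR, and none had an unadjusted p under 0.05.

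The 3 genes called in KO2 against KO1 are shown by the sequence of their promoter, 250 bases before to 50 after the start given by RefSeq on GRCh38.p14, since they were called together. Capitals mark the GC box, GGGCGG, and the CCAAT box, each on either strand. The boxes do not overlap. PIK3R1 (chr5:68215506-68215805, plus strand) is given by the most upstream of its 4 RefSeq starts, IGF1R lies at chr15:98648289-98648588 (plus strand) and FOXO1 at chr13:40666592-40666891 (minus strand).
PIK3R1: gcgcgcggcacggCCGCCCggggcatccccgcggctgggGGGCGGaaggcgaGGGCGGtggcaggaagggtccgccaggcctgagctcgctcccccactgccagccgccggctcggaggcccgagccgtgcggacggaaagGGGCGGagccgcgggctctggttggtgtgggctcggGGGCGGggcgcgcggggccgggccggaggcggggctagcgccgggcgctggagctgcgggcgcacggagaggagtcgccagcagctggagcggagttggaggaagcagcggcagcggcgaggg
IGF1R: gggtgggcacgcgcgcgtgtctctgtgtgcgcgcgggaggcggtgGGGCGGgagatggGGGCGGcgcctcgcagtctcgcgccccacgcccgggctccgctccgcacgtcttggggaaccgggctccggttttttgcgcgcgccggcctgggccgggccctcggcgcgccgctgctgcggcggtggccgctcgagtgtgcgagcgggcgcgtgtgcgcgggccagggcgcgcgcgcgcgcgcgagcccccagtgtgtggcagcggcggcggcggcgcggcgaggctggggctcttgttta
FOXO1: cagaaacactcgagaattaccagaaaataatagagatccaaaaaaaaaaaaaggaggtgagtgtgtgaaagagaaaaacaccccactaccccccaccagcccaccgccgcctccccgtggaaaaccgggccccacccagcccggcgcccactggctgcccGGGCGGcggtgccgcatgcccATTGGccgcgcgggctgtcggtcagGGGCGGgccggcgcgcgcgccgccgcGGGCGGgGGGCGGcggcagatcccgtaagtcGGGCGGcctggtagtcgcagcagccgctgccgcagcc

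The PIK3R1 window printed holds 5 GC boxes, the IGF1R window 2, and the FOXO1 window 5 with 1 CCAAT box. The windows at the other 3 RefSeq starts of PIK3R1, in order along the gene, hold 2, 0 and 0 GC boxes, and 1 of them a CCAAT box. Of 35116 RefSeq promoter windows of this length 44.95% hold the GC box and 34.6% the CCAAT box. Of the 67 windows of members, called or not, 44 hold the GC box and 27 the CCAAT box. The median GC content was 64% in the windows of members and 58.7% in all windows. GTAAACA, a sequence bound by FOXO factors, is in 3.42% of all 35116 windows. CAAAACAA, the core of the insulin response element, is in 1.68%, and TATAAA in 11.5%. None of these last letters occurs in the 3 windows printed, on either strand. A match describes letters only, and binding was not measured.

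The receptors and adaptors held 1 of the 3 genes called in KO2 against KO1. IGF1R, the receptor tyrosine kinase for insulin-like growth factors (chromosome 15, 98648539 to 98964530 in GENCODE 29 on GRCh38), had 15.6 CPM in HCT116-KO2 and 38.5 in HCT-KO2, 23.8 in HCT116-KO1 and 79.4 in HCT-KO1, against 19.04 in HCT116-WT and 70.7 in HCT-WT. Within each prefix the KO2 library was the lowest and the KO1 library the highest. Across prefixes the groups overlapped, because each HCT-named library was above each HCT116-named one. IGF1R fell in KO2 relative to KO1: IGF1R in KO2 against KO1 had a log2 fold change of -0.84 (SE 0.17, 95% interval -1.21 to -0.47, adjusted p = 0.0093). The log2 ratio was -0.60 in the HCT116-named and -1.04 in the HCT-named libraries. Without HCT-KO1 the log2 fold change was -0.57 and was not called. In KO2 against WT it was -0.61 (SE 0.17, adjusted p = 0.0686), and it passed the threshold with DESeq2, limma-voom, RLE size factors, no filter and the 4-library fit, at log2 fold changes of -0.60 to -0.68. With library totals, or without the prefix as a term, IGF1R was not called in KO2 against WT.

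INSR, the insulin receptor, had 22.7 CPM in HCT116-KO2 and 39.05 in HCT-KO2, 26.5 in HCT116-KO1 and 79.3 in HCT-KO1, against 22.8 in HCT116-WT and 65.3 in HCT-WT. HCT-KO2 was the lowest of the HCT-named libraries, and the 3 HCT116-named libraries were close together. INSR in KO2 against KO1 had a log2 fold change of -0.64 (SE 0.19, 95% interval -1.06 to -0.22, adjusted p = 0.0609), just short of the threshold, and it was called in 9 of the 13 alternative analyses (log2 fold change -0.64 to -0.99 there). IRS2, an adaptor that links these receptors to PI3K, had 10.1 CPM in HCT116-KO2 and 21.4 in HCT-KO2, 10.3 in HCT116-KO1 and 56.02 in HCT-KO1, against 10.9 in HCT116-WT and 49.1 in HCT-WT. The HCT-named KO2 library was below its KO1 and WT counterparts and the HCT116-named libraries were nearly equal. IRS2 in KO2 against KO1 had a log2 fold change of -0.78 (SE 0.27, 95% interval -1.37 to -0.19, adjusted p = 0.0957), with log2 ratios of -0.03 in the HCT116-named and -1.38 in the HCT-named libraries. IRS1, its paralog, had 75.8 CPM in HCT116-KO2 and 93.3 in HCT-KO2, 97.3 in HCT116-KO1 and 99.4 in HCT-KO1, against 61.6 in HCT116-WT and 101 in HCT-WT. KO2 lay below KO1 under each prefix and the groups did not overlap, yet IRS1 in KO2 against KO1 had a log2 fold change of -0.23 (SE 0.16, 95% interval -0.57 to 0.11, adjusted p = 0.392). That the KO2 difference of INSR and IRS2 was present mostly in the HCT-named libraries could not be tested, since 1 library of each group has each prefix.

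**Figure D2:**
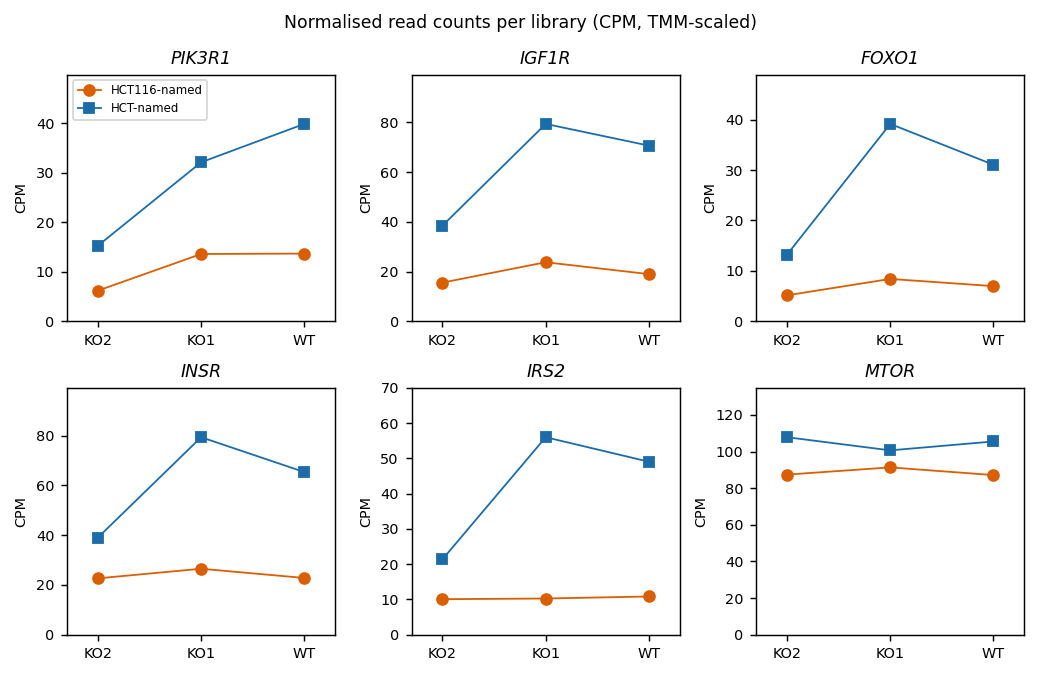
CPM of PIK3R1, IGF1R, FOXO1, INSR, IRS2 and MTOR (vertical axis, linear from 0) in the KO2, KO1 and WT libraries, with lines joining libraries of a prefix: orange for HCT116-named and blue for HCT-named. KO2 lies below KO1 and WT under both prefixes for PIK3R1, mostly under the HCT prefix for INSR and IRS2, and MTOR is between 87.2 and 108 CPM throughout.

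Of the lipid kinase genes only PIK3R1 was called, counting 9 genes and all 3 comparisons. PIK3R1 encodes the regulatory subunit that stabilises and inhibits the catalytic subunit and docks it to receptors (chromosome 5, 68215720 to 68301821 on GRCh38, with no overlapping gene model in GENCODE 29). It had 6.22 CPM in HCT116-KO2 and 15.3 in HCT-KO2, 13.6 in HCT116-KO1 and 32.1 in HCT-KO1, against 13.7 in HCT116-WT and 39.8 in HCT-WT. Under each prefix KO2 was the lowest library and KO1 and WT were close, with HCT-KO1 somewhat below HCT-WT. Across prefixes the groups overlapped, since HCT-KO2 was above HCT116-KO1 and HCT116-WT. PIK3R1 fell in KO2 relative to WT: PIK3R1 in KO2 against WT had a log2 fold change of -1.28 (SE 0.18, 95% interval -1.66 to -0.89, adjusted p = 0.00246), a 2.42-fold difference. Its log2 ratio was -1.12 in the HCT116-named and -1.37 in the HCT-named libraries. PIK3R1 also fell in KO2 relative to KO1, -1.10 (SE 0.18, adjusted p = 0.00276), with ratios of -1.11 and -1.06 for HCT116-named and HCT-named libraries. In KO1 against WT it gave -0.18 (SE 0.17, adjusted p = 0.873). Both KO2 calls held in 12 of 13 alternative analyses and were lost only without the prefix as a term, where the adjusted p was 1 against WT and 0.9998 against KO1. In the authors' deposited table PIK3R1 was the one member with p under 0.05 in KO2 against WT (p = 0.0343, log2 fold change -1.35, adjusted p = 0.999996).

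PIK3R3, another regulatory subunit, had 3.73 CPM in HCT116-KO2 and 5.39 in HCT-KO2, 2.71 in HCT116-KO1 and 3.02 in HCT-KO1, against 3.85 in HCT116-WT and 4.1002 in HCT-WT. KO2 lay above KO1 in both prefixes, with no overlap, and PIK3R3 in KO2 against KO1 had a log2 fold change of 0.67 (SE 0.31, 95% interval -0.01 to 1.35, adjusted p = 0.207). Per length (CPM per kilobase of the longest coding transcript in GENCODE 29), PIK3R1 made up 57.1% of the sum of PIK3R1 and PIK3R3 in HCT116-KO2 and 69.4% in HCT-KO2. The share was 80.1% in HCT116-KO1 and 89.5% in HCT-KO1, against 73.96% in HCT116-WT and 88.6% in HCT-WT. PIK3R2, which encodes another regulatory subunit, is not in these sums. PIK3R4, the regulatory subunit of the class III kinase, had a log2 fold change of -0.07 (SE 0.14, adjusted p = 0.845) in KO2 against WT.

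PIK3CA, a class I catalytic subunit, had 15.1 CPM in HCT116-KO2 and 26.4 in HCT-KO2, 7.65 in HCT116-KO1 and 28.9 in HCT-KO1, against 10.1 in HCT116-WT and 29.1 in HCT-WT. The HCT-named libraries were nearly equal, while HCT116-KO2 was above HCT116-KO1 and HCT116-WT. PIK3CA in KO2 against WT had a log2 fold change of 0.21 (SE 0.24, 95% interval -0.31 to 0.73, adjusted p = 0.688), and PIK3CA in KO1 against WT had a log2 fold change of -0.15 (SE 0.24, 95% interval -0.68 to 0.37, adjusted p = 0.934). The other catalytic genes were PIK3CB and PIK3CD of class I, PIK3C2A and PIK3C2B of class II and PIK3C3 of class III. Their log2 fold changes ran from -0.25 to 0.26 in KO2 against WT and from -0.21 to 0.16 in KO1 against WT, PIK3CA included. Per length, PIK3CB was 43.96% to 57.04% of the sum of PIK3CA, PIK3CB and PIK3CD in the 6 libraries and PIK3CD 32.1% to 43.97%, the 2 being level in HCT116-KO2, while PIK3CA was the lowest of the 3 in each library, at 6.45% to 14.4%.

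The lipid phosphatases were not called in any comparison of the groups. INPP4B, which removes a phosphate from a PI3K product, had 24.4 CPM in HCT116-KO2 and 45.4 in HCT-KO2, 23.03 in HCT116-KO1 and 62.7 in HCT-KO1, against 22.8 in HCT116-WT and 72.9 in HCT-WT. HCT-KO2 was below HCT-KO1 and HCT-WT, and the HCT116-named libraries were nearly equal. INPP4B in KO2 against WT had a log2 fold change of -0.32 (SE 0.18, 95% interval -0.72 to 0.09, adjusted p = 0.38), and INPP4B in KO1 against WT had a log2 fold change of -0.12 (SE 0.18, 95% interval -0.52 to 0.28, adjusted p = 0.934). INPP4A, its paralog, had a log2 fold change of -0.12 (SE 0.15, adjusted p = 0.715) in KO2 against WT and 0.15 (SE 0.15, adjusted p = 0.87) in KO1 against WT.

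Akt and the genes that switch it on and off were called in none of the 3 comparisons. AKT1 had 328 CPM in HCT116-KO2 and 243 in HCT-KO2, 318 in HCT116-KO1 and 220.3 in HCT-KO1, against 358 in HCT116-WT and 234 in HCT-WT. AKT2 had 164 CPM in HCT116-KO2 and 113 in HCT-KO2, 162 in HCT116-KO1 and 92.7 in HCT-KO1, against 174 in HCT116-WT and 97.6 in HCT-WT. For both genes the libraries of a prefix lay close together, and each HCT116-named library was above each HCT-named one. AKT1 in KO2 against WT had a log2 fold change of -0.04 (SE 0.12, 95% interval -0.30 to 0.23, adjusted p = 0.907), and AKT1 in KO1 against WT had a log2 fold change of -0.13 (SE 0.12, 95% interval -0.39 to 0.13, adjusted p = 0.865). AKT2 in KO2 against WT had a log2 fold change of 0.06 (SE 0.12, 95% interval -0.21 to 0.34, adjusted p = 0.835), and AKT2 in KO1 against WT had a log2 fold change of -0.09 (SE 0.12, 95% interval -0.36 to 0.19, adjusted p = 0.925). These intervals leave out a change of the size measured for PIK3R1. AKT1 was 72.7% to 76.4% of the AKT1 and AKT2 sum per length in the 6 libraries. PDPK1, the kinase that phosphorylates Akt, and the Akt phosphatases PHLPP1 and PHLPP2 had log2 fold changes of -0.24 to 0.43 in KO2 against WT and of 0.02 to 0.27 in KO1 against WT.

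Among the Akt substrates 1 of 6 was called, in KO2 against KO1. FOXO1, a transcription factor that Akt keeps out of the nucleus (chromosome 13, 40469953 to 40666597 on GRCh38), had 5.18 CPM in HCT116-KO2 and 13.2 in HCT-KO2, 8.42 in HCT116-KO1 and 39.1 in HCT-KO1, against 7.001 in HCT116-WT and 31.04 in HCT-WT. KO2 was the lowest and KO1 the highest library under each prefix, with the HCT-named libraries further apart. FOXO1 fell in KO2 relative to KO1: FOXO1 in KO2 against KO1 had a log2 fold change of -1.20 (SE 0.23, 95% interval -1.71 to -0.70, adjusted p = 0.00746), with log2 ratios of -0.69 in the HCT116-named and -1.55 in the HCT-named libraries. Without HCT-KO1 its log2 fold change was -0.72 and it was not called. In KO2 against WT it was -0.90 (SE 0.23, adjusted p = 0.0526), short of the threshold, and it passed with DESeq2, limma-voom, RLE size factors, no filter and the 4-library fit. With library totals, or without the prefix as a term, FOXO1 was not called in KO2 against WT. Per length, FOXO1 made up 9.504% of FOXO1, FOXO3 and FOXO4 together in HCT116-KO2 and 15.2% in HCT-KO2, 15.6% in HCT116-KO1 and 28.98% in HCT-KO1, against 14.1% in HCT116-WT and 25.2% in HCT-WT.

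FOXO4 had 12.99 CPM in HCT116-KO2 and 13.5 in HCT-KO2, 8.58 in HCT116-KO1 and 12.8 in HCT-KO1, against 10.6 in HCT116-WT and 13.6 in HCT-WT. KO2 was above KO1 with no overlap, and FOXO4 in KO2 against KO1 had a log2 fold change of 0.32 (SE 0.21, 95% interval -0.14 to 0.78, adjusted p = 0.375). FOXO3 had a log2 fold change of -0.37 (SE 0.15, adjusted p = 0.162) in KO2 against KO1. GSK3B, a kinase that Akt inhibits by phosphorylation, had 59.1 CPM in HCT116-KO2 and 92.8 in HCT-KO2, 64.3 in HCT116-KO1 and 115 in HCT-KO1, against 49.9 in HCT116-WT and 106 in HCT-WT. HCT-KO2 was the lowest of the HCT-named libraries and HCT116-KO1 the highest of the HCT116-named ones. GSK3B in KO2 against WT had a log2 fold change of 0.01 (SE 0.14, 95% interval -0.29 to 0.32, adjusted p = 0.967), and GSK3B in KO1 against WT had a log2 fold change of 0.23 (SE 0.14, 95% interval -0.07 to 0.53, adjusted p = 0.721). Its paralog GSK3A had a log2 fold change of 0.13 (SE 0.16, adjusted p = 0.711) in KO2 against WT, and BAD, a cell death protein that Akt restrains, had a log2 fold change of -0.06 (SE 0.15, adjusted p = 0.864).

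The switch upstream of mTOR, which joins TSC1, TSC2, RHEB and the kinase STK11, had log2 fold changes of -0.12 to 0.14 in KO2 against WT and -0.08 to 0.04 in KO1 against WT. TSC2, which holds RHEB in its inactive state, had 118 CPM in HCT116-KO2 and 82.8 in HCT-KO2, 103 in HCT116-KO1 and 81.5 in HCT-KO1, against 102 in HCT116-WT and 80.2 in HCT-WT. The HCT-named libraries were nearly equal, and HCT116-KO2 was above the other HCT116-named libraries. TSC2 in KO2 against WT had a log2 fold change of 0.13 (SE 0.12, 95% interval -0.13 to 0.40, adjusted p = 0.604), and TSC2 in KO1 against WT had a log2 fold change of 0.02 (SE 0.12, 95% interval -0.25 to 0.29, adjusted p = 0.986).

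MTOR, the kinase of both complexes, had 87.4 CPM in HCT116-KO2 and 108 in HCT-KO2, 91.4 in HCT116-KO1 and 101 in HCT-KO1, against 87.2 in HCT116-WT and 105 in HCT-WT. Its 3 groups overlapped, and within each prefix the libraries differed little. MTOR in KO2 against WT had a log2 fold change of 0.02 (SE 0.12, 95% interval -0.25 to 0.28, adjusted p = 0.953), and MTOR in KO1 against WT had a log2 fold change of 0.00 (SE 0.13, 95% interval -0.28 to 0.28, adjusted p = 1). MLST8, a subunit of both complexes, had a log2 fold change of -0.38 (SE 0.12, adjusted p = 0.116) in KO2 against WT, with ratios below 0 under both prefixes. DEPTOR, an inhibitor bound to mTOR, had 6.29 CPM in HCT116-KO2 and 8.22 in HCT-KO2, 2.24 in HCT116-KO1 and 11.1 in HCT-KO1, against 1.26 in HCT116-WT and 11.6 in HCT-WT. Its KO2 to WT log2 ratio was 2.21 in the HCT116-named and -0.50 in the HCT-named libraries, on few reads in HCT116-WT. DEPTOR in KO2 against WT had a log2 fold change of 0.60 (SE 0.49, 95% interval -0.47 to 1.68, adjusted p = 0.556).

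The mTORC1 genes were RPTOR and AKT1S1. RPTOR, the scaffold that brings substrates to mTORC1, had 116 CPM in HCT116-KO2 and 89.9 in HCT-KO2, 99.8 in HCT116-KO1 and 66.5 in HCT-KO1, against 139 in HCT116-WT and 99.7 in HCT-WT. KO1 was the lowest library under each prefix and WT the highest, with KO2 between them. RPTOR in KO1 against WT had a log2 fold change of -0.53 (SE 0.12, 95% interval -0.80 to -0.26, adjusted p = 0.0793), with log2 ratios of -0.48 in the HCT116-named and -0.58 in the HCT-named libraries. This was the smallest p of any member in that comparison. DESeq2 called RPTOR (adjusted p = 0.0367), as did the fit with no filter on low counts (0.0311) and the fit of the 4 libraries compared (1.30e-05). RPTOR in KO2 against WT had a log2 fold change of -0.21 (SE 0.12, 95% interval -0.47 to 0.06, adjusted p = 0.389). AKT1S1, an mTORC1 inhibitor that Akt phosphorylates, had a log2 fold change of 0.37 (SE 0.13, adjusted p = 0.105) in KO2 against KO1.

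The mTORC2 genes were RICTOR, MAPKAP1 and PRR5. RICTOR, the subunit that defines mTORC2, had 15.96 CPM in HCT116-KO2 and 29.6 in HCT-KO2, 12.1 in HCT116-KO1 and 43.9 in HCT-KO1, against 15.1 in HCT116-WT and 39.5 in HCT-WT. HCT-KO2 was below HCT-KO1 and HCT-WT, while HCT116-KO2 was slightly above HCT116-WT. RICTOR in KO2 against WT had a log2 fold change of -0.17 (SE 0.21, 95% interval -0.64 to 0.29, adjusted p = 0.715), and RICTOR in KO1 against WT had a log2 fold change of -0.04 (SE 0.21, 95% interval -0.50 to 0.42, adjusted p = 0.983). MAPKAP1, which anchors the complex, and PRR5, another subunit, had log2 fold changes of -0.09 and 0.00 in KO2 against WT and of -0.10 and -0.02 in KO1 against WT. PRR5 overlaps the readthrough gene PRR5-ARHGAP8 on the same strand in GENCODE 29, so reads of the pair cannot be told apart.

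The mTORC1 outputs were the S6 kinases, the translation repressors EIF4EBP1 and EIF4EBP2, the cap-binding factor EIF4E, the helicase cofactor EIF4B and the autophagy kinase ULK1. EIF4EBP1, which releases EIF4E when mTORC1 phosphorylates it, had 105 CPM in HCT116-KO2 and 54.1 in HCT-KO2, 112 in HCT116-KO1 and 60.1 in HCT-KO1, against 163 in HCT116-WT and 64.04 in HCT-WT. Both knockout groups were below WT under each prefix, more so in the HCT116-named libraries, and neither was called. EIF4EBP1 in KO2 against WT had a log2 fold change of -0.45 (SE 0.14, 95% interval -0.76 to -0.14, adjusted p = 0.0993), and EIF4EBP1 in KO1 against WT had a log2 fold change of -0.33 (SE 0.14, 95% interval -0.63 to -0.02, adjusted p = 0.511). RPS6KB1, the main S6 kinase, had 53.3 CPM in HCT116-KO2 and 71.97 in HCT-KO2, 63.5 in HCT116-KO1 and 86.04 in HCT-KO1, against 55.9 in HCT116-WT and 83.5 in HCT-WT. KO2 was below WT and KO1 above it under both prefixes. RPS6KB1 in KO2 against WT had a log2 fold change of -0.14 (SE 0.12, 95% interval -0.42 to 0.13, adjusted p = 0.584), and RPS6KB1 in KO1 against WT had a log2 fold change of 0.11 (SE 0.12, 95% interval -0.16 to 0.38, adjusted p = 0.891). ULK1, which mTORC1 restrains, had 66.9 CPM in HCT116-KO2 and 48.2 in HCT-KO2, 70.3 in HCT116-KO1 and 78.2 in HCT-KO1, against 70.95 in HCT116-WT and 77.3 in HCT-WT. Both KO2 libraries were below both WT and both KO1 libraries, and ULK1 in KO2 against WT had a log2 fold change of -0.37 (SE 0.16, 95% interval -0.73 to -0.02, adjusted p = 0.235).

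Between the 2 prefixes the members moved much more. Of 45 members 40 were called between the HCT116-named and the HCT-named libraries, which is 88.9% beside 63.9% of all tested genes, with 13 higher and 27 lower in the HCT116-named libraries. Over all genes the calls split evenly, 4036 higher (31.8%) and 4069 lower (32.1%). The members' median log2 fold change was -0.50, against -0.02 for all tested genes, and their median absolute value 0.82 against 0.56. With library totals in place of TMM the median of all genes moved to -0.20, the split became 11 members higher and 29 lower, and over all genes 3119 higher and 5005 lower. This contrast was fitted across the 3 groups, so it compares 3 libraries with 3, and the groups are balanced over it.

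The 27 members called lower were 14 of 15 receptors, adaptors, lipid kinases and lipid phosphatases and 13 of the 30 other members. Of all tested genes 32.1% were called lower. All 4 receptors and adaptors, all 6 catalytic lipid kinase genes, 2 of 3 regulatory genes and both lipid phosphatases were lower in the HCT116-named libraries. FOXO1 had the lowest log2 fold change, -1.93, followed by IRS2 (-1.91), DEPTOR (-1.77), IGF1R (-1.65), PIK3C2A (-1.42), PIK3CA (-1.39), RICTOR (-1.37) and PIK3R1 (-1.36). FOXO1 averaged 6.87 CPM in the HCT116-named libraries and 27.8 CPM in the HCT-named libraries. Higher in the HCT116-named libraries were AKT1S1 (1.51), MLST8 (1.42), PRR5 (1.37), RPS6KB2 (1.31), STK11 (1.20) and GSK3A (1.18), and both mTORC1 genes were called higher. These extremes were picked out after their values were seen. Of the 40 calls, those of TSC2, PIK3CD, IRS1, PDPK1, EIF4B, RHEB and EIF4E were lost in at least 1 of 11 alternative analyses.

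**Figure D3:**
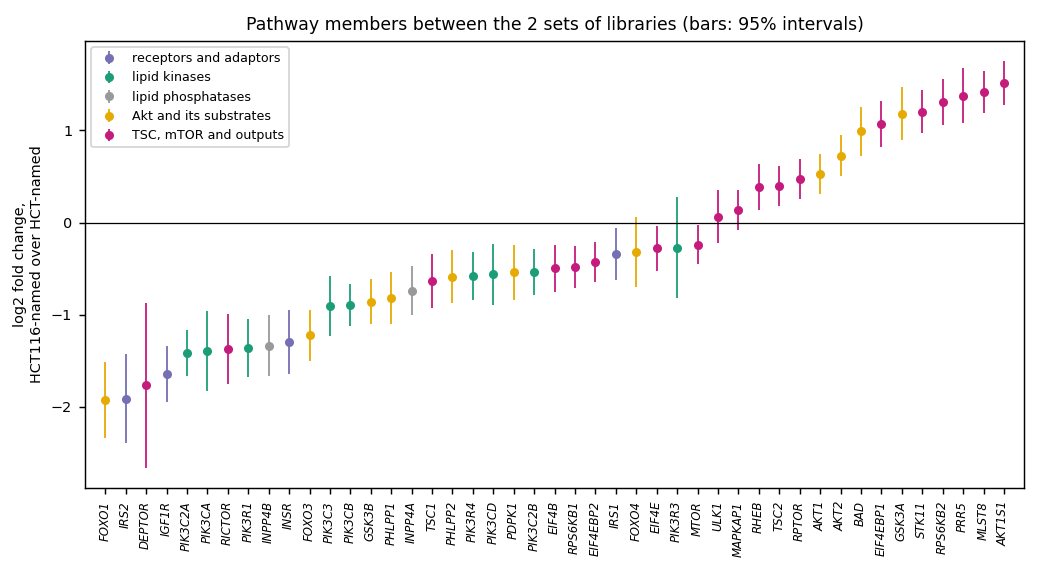
Log2 fold change of each member in the HCT116-named over the HCT-named libraries (vertical axis), sorted, with 95% intervals as bars and colours for the part of the pathway. Receptors, adaptors and lipid kinases are all below 0, and AKT1S1 and MLST8 have the highest values, 1.51 and 1.42.

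Across members the difference between the prefixes moved with transcript composition and length. The 13 called higher in the HCT116-named libraries had a median transcript length of 3524 bases and a median GC content of 60.5%, and the 27 called lower 7711 bases and 45.7%. Pearson's r of the log2 fold change with GC content was 0.69 and with log2 length -0.68 over the 45 members (Spearman 0.68 and -0.64). Over 12657 tested genes r was 0.55 and -0.51. All points share the same 6 libraries and genes are not independent replicates, so these are descriptions. Within bins of GC content the members' median ran below that of all genes, for example -1.12 against -0.61 under 40% GC and -0.74 against -0.16 at 45% to 50%, but above it over 60% GC, 1.20 against 0.68. Whether composition or length sets the difference was not tested.

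**Figure D4:**
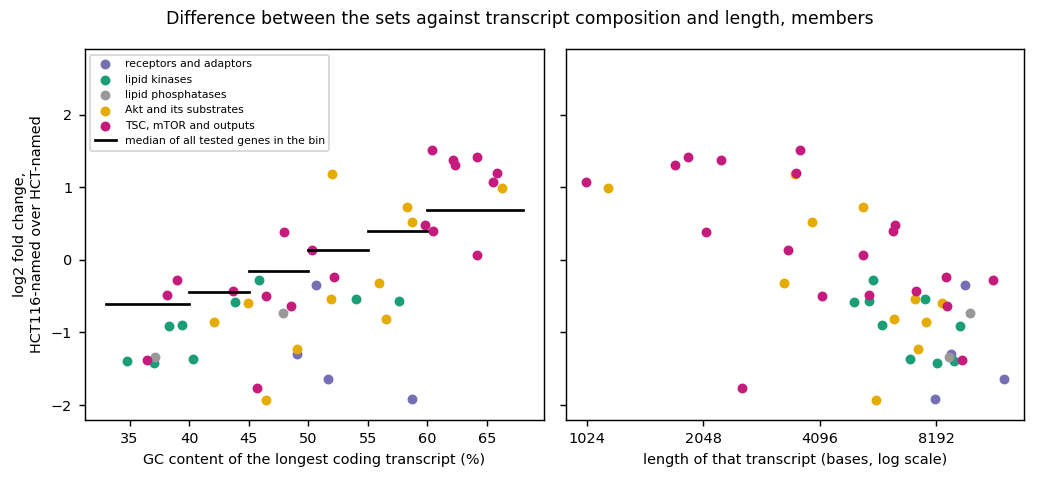
Log2 fold change of the 45 members in HCT116-named over HCT-named libraries against GC content (left) and length on a log scale (right) of the longest coding transcript, coloured by part of the pathway. Black lines give the median of all tested genes in each GC bin, and the members rise with GC content (r = 0.69) and fall with length (r = -0.68).

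Per length the members covered a wide range. The translation cofactor EIF4B had the highest level, with a mean of 205 CPM per kilobase over the 6 libraries, followed by EIF4EBP1 (91.2), AKT1 (72.4), STK11 (50.2) and MLST8 (44.1). PIK3R3 had the lowest, 0.677. The median level of members was 7.97 CPM per kilobase and that of 12657 tested genes 8.36.

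Of the other pathway genes, 120 in 8 lists with 107 tested, 5 were called in KO2 against WT, 3 higher and 2 lower (4.67%), where 4.61% of all tested genes were called. SESN3, a FOXO target whose product restrains mTORC1, had 36.6 CPM in HCT116-KO2 and 88.2 in HCT-KO2, 7.19 in HCT116-KO1 and 36.5 in HCT-KO1, against 5.43 in HCT116-WT and 45.5 in HCT-WT. KO2 was above KO1 and WT under both prefixes, by the larger ratio in the HCT116-named libraries. SESN3 in KO2 against WT had a log2 fold change of 1.72 (SE 0.31, 95% interval 1.04 to 2.40, adjusted p = 0.00939). BCL2L11, a cell death gene and FOXO target, had 44.4 CPM in HCT116-KO2 and 61.03 in HCT-KO2, 26.97 in HCT116-KO1 and 34.98 in HCT-KO1, against 24.2 in HCT116-WT and 38.7 in HCT-WT, and both KO2 libraries were above both WT and both KO1 libraries. BCL2L11 in KO2 against WT had a log2 fold change of 0.76 (SE 0.15, 95% interval 0.44 to 1.08, adjusted p = 0.0141). SHC1, a receptor adaptor, rose in KO2 with a log2 fold change of 0.51 (adjusted p = 0.035). PIP4K2A, a phosphoinositide kinase, fell with a log2 fold change of -0.69 (adjusted p = 0.0156), and TRIB2, which binds Akt, with -0.88 (adjusted p = 0.00702).

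In KO1 against WT 1 of 107 was called (0.935%), where 1.03% of all tested genes were: TRIB3, an Akt-binding pseudokinase, at -0.85 (SE 0.16, adjusted p = 0.0277). In KO2 against KO1, 6 were called higher (SHC1, EGFR, SYNJ2, TRIB3, SESN3 and BCL2L11) and 3 lower (MET, PIP4K2A and TRIB2), 8.41% beside 9.62% of all tested genes. SYNJ2 removes phosphates from phosphoinositides, and EGFR and MET are receptor tyrosine kinases. Of 12 tested FOXO target genes 2 were called higher in KO2 against WT, where 2.15% of all tested genes were, and 0 lower, where 2.47% were. Over these 12 genes the median log2 fold change came to -0.03, beside 0.00 for all tested genes. The lists with no called gene in these comparisons were the amino acid branch of mTORC1 (25 tested), the translation arm (11), the autophagy and lysosome arm (10) and the assembly factors and partners of mTOR and TSC (6).

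Marker genes of the labelled cell type and of others differed between the groups. Summed CPM of 8 colorectal epithelial markers was 5328 to 9326 in KO2, 8798 to 15143 in KO1 and 6398 to 8489 in WT, and 4 of 7 tested were called lower in KO2 against KO1 (KRT8, KRT18, KRT19 and CDH1), where 5.39% of all tested genes were. The other 3 were not called, with log2 fold changes of 0.52 for CDX2 (adjusted p = 0.0619), -0.05 for EPCAM and -0.02 for CLDN7. Leukocyte markers, 5 of 6 listed, summed to 5.65 to 13.1 CPM in KO2, 19.6 to 20.8 in KO1 and 8.59 to 8.97 in WT, with CD68 called lower in KO2 against KO1. Fibroblast markers summed to 35.1 to 67.0 CPM, endothelial markers to 0.865 to 4.62 CPM and HEK293T markers, for the packaging line of the virus, to 15.5 to 31.4 CPM over the 6 libraries. SIX2, a HEK293T marker, was lower in KO2 against both, and PAX2 higher in KO2 against KO1. Their part in the differences of PIK3R1, IGF1R and FOXO1 was not tested.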

How the data were processed

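Poly(A) RNA was sequenced from 6 libraries. One table for each guide holds the read counts per gene that the authors deposited. The submitters' processing notes list HTSeq 0.6.0, STAR, DESeq2 and hg18, with no order of steps. Per the file headers, the deposited log2 fold changes and p-values set each guide against WT. Joining the tables on symbol left 15284 genes, with identical WT counts, and 40 other columns of per-library values were not used. KO1 alone lists another 264 genes and KO2 alone another 429.

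Counts were tested with edgeR 4.0.16 in R 4.3.3 (quasi-likelihood test, TMM scaling, filterByExpr at a minimum of 10 counts). All 6 libraries entered 1 fit, with group and prefix as terms and Benjamini-Hochberg adjustment at 0.05 over 12678 genes. This leaves 2 residual degrees of freedom per gene, and the tests and intervals also borrow from the spread of the other genes. The prefix was kept as a pairing term because deviations from the group means correlated at 0.867 (KO1 and WT), 0.815 (KO2 and WT) and 0.783 (KO2 and KO1). The biological coefficient of variation was 0.118 with the prefix and 0.383 without. Each standard error is the size of the log2 fold change over the square root of F, and intervals are 95%. At these depths 3 counts are 0.168 to 0.22 CPM, which bounds counting error only. Alternatives used RLE scaling, library totals, no filter, DESeq2 1.42.0, limma-voom (limma 3.58.1), 4 libraries, no prefix and 1 library left out. The fit was also run on simulated counts for KO1 against WT, and the comparisons with KO2 were not simulated.

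The members and lists were chosen with earlier results of these data known. Values in every library are given for MUC3A, members called in a comparison of groups and a set list of main components. INSR, IRS2, IRS1, PIK3R3, FOXO4, DEPTOR and ULK1 were neither, and were added after their values were seen. From other lists up to 4 called genes each are named, with values in every library for SESN3 and BCL2L11. Levels are compared between genes as CPM per kilobase of the longest coding transcript. GENCODE 29 on GRCh38 gave transcript length and GC content, and RefSeq (GRCh38.p14) the promoters.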

Additional observations from a re-analysis of the deposited data

Results flagged for a closer look

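Guide and selected line cannot be told apart in these data. For 3 members the KO2 and KO1 groups differed by a direct edgeR test. PIK3R1 had a log2 fold change of -1.10 (SE 0.18, adjusted p = 0.00276) between them, and lay lower in KO2 under both prefixes. FOXO1 had -1.20 (SE 0.23, adjusted p = 0.00746) and IGF1R -0.84 (SE 0.17, adjusted p = 0.0093), also lower in KO2 under both prefixes, and neither was called when HCT-KO1 was left out.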

How the results depend on the processing

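The 4 calls of members between the groups kept their direction in every alternative run. They depend on the pairing: with no replicate block, 0 members and 0 genes were called in each comparison of groups, and 173 genes (KO1 against WT), 309 (KO2 against WT) and 513 (KO2 against KO1) had an unadjusted p under 0.05. Precision is limited by 2 libraries a group and, for DEPTOR, by few reads (SE 0.49 in KO2 against WT). Members called in KO2 against WT, 1 as reported, were 3 with RLE scaling, 3 with no filter, 3 with DESeq2, 4 with limma-voom and 4 with the 4 libraries compared, and 1 to 11 when a library was left out. In KO2 against KO1, 3 as reported, they were 5 with no filter, 5 with limma-voom and 5 with 4 libraries, and 1 to 15. In KO1 against WT, 0 as reported, they were 1 with no filter, 1 with DESeq2 and 2 with 4 libraries, and 0 to 2. Over all genes KO1 against WT gave 130 calls, 316 with no filter, 205 with DESeq2, 879 with 4 libraries and 69 to 901 with a library left out. KO2 against WT gave 585, 949 with no filter and 317 to 2170. KO2 against KO1 gave 1220 and 391 to 3202. The cause of these shifts was not tested.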

Other observations

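Within some families of paralogs the balance of transcripts differed between the prefixes. The shares of PIK3R1, PIK3CB, FOXO1 and FOXO3 in their families overlapped between the prefixes. Per length (CPM per kilobase), GSK3A made up 78.8% to 83.1% of the GSK3A and GSK3B sum in the HCT116-named libraries and 44.4% to 57.8% in the HCT-named libraries. RPS6KB2 was 79.2% to 83.9% of the S6 kinase sum in the HCT116-named libraries and 53.002% to 63.2% in the HCT-named libraries. IRS1 was 82.6% to 88.8% of the IRS1 and IRS2 sum in the HCT116-named libraries and 59.8% to 78.5% in the HCT-named libraries. For GSK3A, RPS6KB2 and IRS1 the shares in the 3 libraries of one prefix lay apart from those in the 3 of the other. AKT1 showed the same separation with a smaller gap, being 72.7% to 73.6% of the AKT1 and AKT2 sum in the HCT116-named libraries and 74.5% to 76.4% in the HCT-named libraries. EIF4EBP1 was 85.9% to 90.4% of the EIF4EBP1 and EIF4EBP2 sum in the HCT116-named libraries and 68.5% to 73.5% in the HCT-named ones. INSR was 60.3% to 66.5% of the INSR and IGF1R sum in the HCT116-named libraries and 55.8% to 58.1% in the HCT-named ones. The shares of PIK3CD and FOXO4 were also higher, and that of PIK3CA lower, in each HCT116-named library than in each HCT-named one.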
